A study of Mus musculus with 15 samples.

Results

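The 3009 regions described here carried a peak of histone H3 lysine 27 acetylation (H3K27Ac) in pancreatic islets of mice fed a high-fat diet containing O304 (HFD-O304), and no such peak in islets of mice on regular diet (RD) or on high-fat diet without the drug (HFD). O304 is an activator of AMP-activated protein kinase (AMPK), the enzyme that senses low cellular energy. The regions were chosen by their H3K27Ac calls: peaks of the 3 lists on chromosomes 1 to 19 that shared 1 bp or more were joined, and a region was kept when the HFD-O304 list alone contributed to it. They made up 11.8% of the 25452 joined regions (95% Wilson interval 11.4 to 12.2) and 15.4% (14.9 to 15.9) of the 19497 regions that held an HFD-O304 peak. Because presence and strength of H3K27Ac selected them, both are given below as a description and are not tested. Genomic position, sequence and the second mark, H3K27Me3, were not used in the selection.

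Islets came from adult male CBA mice, and by their labels the 3 groups differed in diet. About 600 islets entered each chromatin immunoprecipitation. Each combination of mark and diet had 2 libraries, which were merged before peaks were called, so every diet is represented by 1 list per mark and no replicate error can be given. One input library was sequenced per diet, but no control was named when the peaks were called. After removal of duplicate fragments the H3K27Ac lists rested on 84694188 fragments for HFD-O304, 95218072 for HFD and 83773042 for RD, and the H3K27Me3 lists on 54166902 to 74870300. All of the intervals below cover counting of regions, not variation between animals.

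H3K27Ac is deposited by the acetyltransferases p300 and CBP and marks promoters and enhancers in use, whereas H3K27Me3 is laid down on the same residue by Polycomb repressive complex 2 and marks silenced chromatin. One lysine cannot carry both modifications at the same time. In islets the first mark is found at genes for hormone synthesis and secretion. Of the islet endocrine markers, 8 of 12 had an HFD-O304 peak within 1000 bp of a start site, including Pdx1, Nkx6-1, Isl1, Chga and Ins2, and the promoters of Gcg, Sst, Iapp and Ins1 had none. In RD 8 and in HFD 9 of the 12 had such a peak, Ins1 among them. Gcg, Sst and Iapp had none in those lists either. In HFD-O304 such a peak was found for 1 of 8 acinar and 2 of 5 duct markers. It was found for 0 of 5 endothelial, 0 of 6 macrophage and 0 of 5 stromal markers. The duct gene Krt19, a keratin of simple epithelia, had such a peak in HFD-O304 and in neither other list, at chr11:100145158-100145440 with a fold of 2.35. In whole islets, a change in the share of a cell type and a change of the mark within a cell cannot be told apart.

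The sequences below are from the GRCm38 reference (C57BL/6J, plus strand, RefSeq), which is a different strain from the mice used. The first pair shows strong promoter regions, the next pair the strongest regions away from promoters with less than 50% repeat, then comes a strong region in repeat sequence, and finally regions at an islet granule gene and at a calcium channel gene, which were picked after their values were known. Stretches annotated as untranslated were left out. In the Cmas and Atp2c1 stretches capitals mark 1 copy of a tandem unit, and in the others they mark matches to 20 short transcription factor motifs, of which the Tmem223 stretch has none.

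Tmem223, chr19:8771179-8771378: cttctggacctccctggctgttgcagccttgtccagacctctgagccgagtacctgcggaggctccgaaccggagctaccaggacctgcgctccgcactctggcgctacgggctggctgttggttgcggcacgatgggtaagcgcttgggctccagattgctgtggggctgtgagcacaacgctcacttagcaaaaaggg
Cblc, chr7:19796583-19796782: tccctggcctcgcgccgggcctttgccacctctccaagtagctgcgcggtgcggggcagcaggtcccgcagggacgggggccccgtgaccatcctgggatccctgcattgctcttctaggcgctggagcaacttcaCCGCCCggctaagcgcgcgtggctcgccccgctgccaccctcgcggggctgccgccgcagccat
Cmas, chr6:142770792-142770991: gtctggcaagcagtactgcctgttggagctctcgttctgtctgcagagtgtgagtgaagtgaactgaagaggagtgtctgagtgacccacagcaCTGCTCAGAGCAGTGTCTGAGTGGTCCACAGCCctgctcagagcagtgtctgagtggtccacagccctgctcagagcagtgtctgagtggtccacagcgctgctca
Atp2c1, chr9:105441839-105442038: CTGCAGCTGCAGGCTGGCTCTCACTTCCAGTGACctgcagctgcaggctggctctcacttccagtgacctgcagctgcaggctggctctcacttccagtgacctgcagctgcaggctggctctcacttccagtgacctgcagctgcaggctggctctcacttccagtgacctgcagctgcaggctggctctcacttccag
Abhd6, chr14:8006606-8006805: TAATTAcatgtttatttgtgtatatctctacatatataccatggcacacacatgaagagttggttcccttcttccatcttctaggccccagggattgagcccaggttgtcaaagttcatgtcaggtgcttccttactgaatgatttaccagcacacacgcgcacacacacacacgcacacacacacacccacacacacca
Scg2, chr1:79439786-79439955: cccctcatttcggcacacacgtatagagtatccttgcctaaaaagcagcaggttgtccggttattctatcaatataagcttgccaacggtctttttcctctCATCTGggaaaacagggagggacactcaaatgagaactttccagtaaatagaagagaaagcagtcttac
Cacnb2, chr2:14608940-14609139: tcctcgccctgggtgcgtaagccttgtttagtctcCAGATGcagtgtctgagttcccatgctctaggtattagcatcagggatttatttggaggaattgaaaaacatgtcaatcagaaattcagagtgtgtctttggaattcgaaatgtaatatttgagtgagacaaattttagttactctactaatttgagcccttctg

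Most of the regions were weak and short. The fold, which is the fragment pileup over the background expected by the peak caller, had a median of 2.39 and ran from 2.25 to 7.39. The −log10 q ran from 2.12 to 53.2 with a median of 2.81, and 1789 regions (59.5%) were below 3. Only 132 regions (4.39%, 3.71 to 5.18) reached 5, and 34 (1.13%) reached a fold of 3. Lengths had a median of 433 bp and ran from 270 to 4426 bp. Every region consisted of 1 peak. For comparison, regions called in all 3 diets had a median HFD-O304 fold of 3.04 and a median length of 1346 bp, and regions in HFD alone resembled the HFD-O304-alone set with a median HFD fold of 2.32 and a median length of 434 bp. The lowest fold called was 2.28 in the RD list and 2.17 in the HFD list, so that 288 regions (9.57%) were weaker than any peak of the RD list and none was weaker than the weakest HFD peak.

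The absence of a call in the other diets was close to the limit for some of them. Fewer than 10 bases separated the 3 regions with the smallest gap from a peak of RD or HFD. They lay in introns of Fam163a (chr1:156090075-156090654, gap 1 bp, fold 2.55), Rbfox3 (chr11:118648051-118648776, gap 4 bp, fold 2.31) and Ndrg1 (chr15:66961860-66962932, gap 5 bp, fold 2.36). Just outside the rule, an HFD-O304 peak at chr17:30619389-30620440 shared 2 bp with another list, one at chr11:4264028-4264299 shared 3 bp and one at chr1:91527477-91527889 shared 7 bp, with folds of 2.26, 2.63 and 2.30. At the lower edge of the call itself, the weakest regions lay near Mettl21a, Prss56 and Nckap5, all at fold 2.25 and −log10 q 2.12. Over all 3009 regions the median gap to the nearest RD or HFD peak was 14907 bp. An RD or HFD peak lay within 1 kb of 163 regions (5.42%), within 10 kb of 1238 (41.1%) and within 100 kb of 2675 (88.9%).

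**Figure D1:**
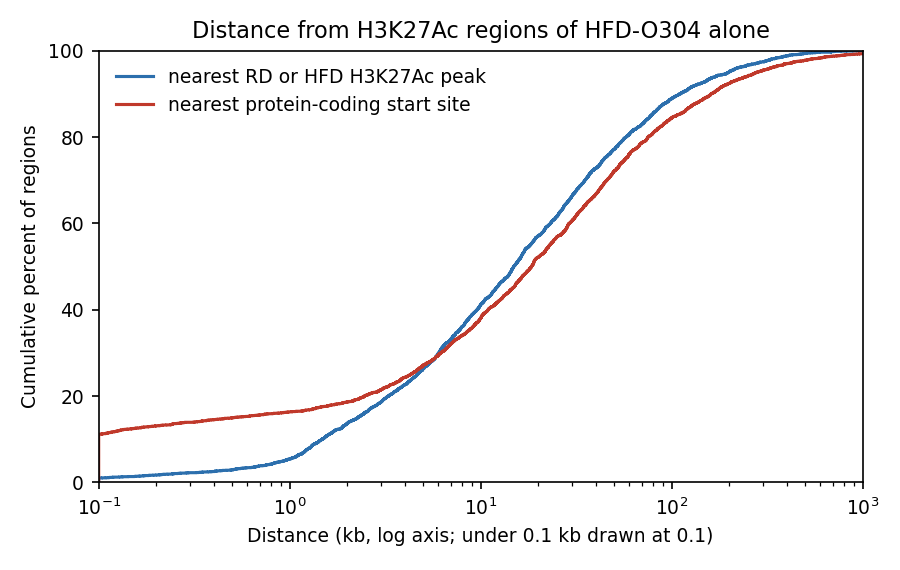
Cumulative percent of the 3009 HFD-O304-alone regions (y axis) by distance in kb on a log axis, to the nearest H3K27Ac peak of RD or HFD (blue) and to the nearest protein-coding start site (red). A total of 41.1% lie within 10 kb of an RD or HFD peak and 38.1% within 10 kb of a start site, and 258 regions contain a start site.

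The regions were spread over the whole genome. Their share of all joined regions was lowest on chromosome 16 (78 of 808, 9.65%, 7.80 to 11.9) and highest on chromosome 17 (184 of 1326, 13.9%, 12.1 to 15.8), and the others fell between 10.7% and 13.1%. Chromosome 17 also held the most per length, at 1.94 regions per Mb. Grouping within 10 kb placed 358 regions (11.9%) in 172 groups of 2 or more, of which the largest had 4 regions near Galnt14.

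The strongest regions were a mixture of tandem sequence, repeats and promoters. Tandem sequence is used here for a stretch of 100 bp in which at least 85% of bases equal the base a fixed 2 to 100 positions further on. The strongest region lay in an intron of Cmas, which encodes the enzyme that activates sialic acid, at chr6:142770700-142771083. Its fold was 7.39 and its −log10 q 53.2, with a pileup of 97.5. None of its bases is repeat-masked in the reference, but 62.0% lie in tandem sequence with a period of 33 bp, visible in the stretch above. The second region, in an intron of Abhd6 (chr14:8006127-8007285), reached a fold of 5.07 at −log10 q 28.3, with 60.1% of bases repeat-masked and 26.3% in tandem sequence of period 2 bp. Abhd6 is a monoacylglycerol lipase. The third, in an intron of the Golgi calcium and manganese pump gene Atp2c1 (chr9:105441776-105442101), had a fold of 3.98 and was tandem over 100% of its length with a period of 34 bp. The fourth, intergenic and nearest to Pcdh1 (chr18:38107297-38107583, fold 3.89), was 100% repeat-masked with a period of 6 bp. Only the fifth, in an intron of Sirpa (chr2:129603447-129603748, fold 3.67, −log10 q 12.7), had no tandem stretch and little repeat (16.9%). Sirpa encodes an inhibitory receptor known best from myeloid cells.

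Among the 34 regions with a fold of at least 3, 13 had a tandem stretch, 13 were at least 50% repeat-masked, and 14 were neither, of which 10 lay at promoters. Among the 45 HFD-alone regions with a fold of at least 3 in HFD, 16 had a tandem stretch, 25 were repeat-masked and 7 lay at promoters, and among the 55 such RD-alone regions these counts were 11, 46 and 1. Over all strengths a tandem stretch was found in 264 HFD-O304-alone regions (8.77%, 7.81 to 9.84), in 9.73% of HFD-alone, 10.7% of RD-alone and 7.52% of regions common to all diets. The part that copy number of tandem sequence or mapping of fragments to it had in these calls was not tested.

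**Figure D2:**
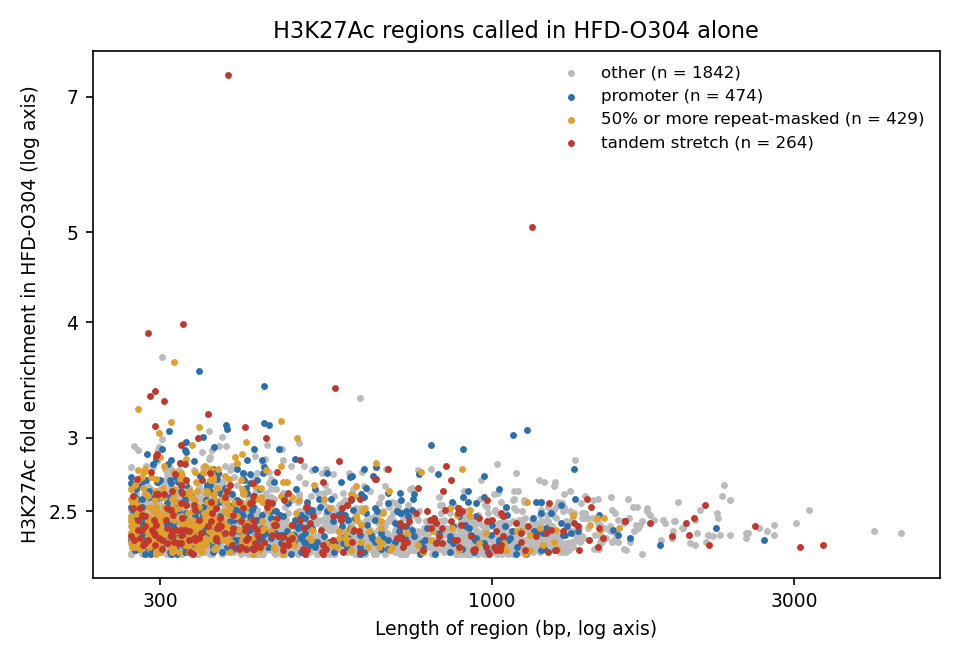
H3K27Ac fold enrichment in HFD-O304 (y axis, log scale) against region length in bp (x axis, log scale), 1 point for each of the 3009 regions, coloured by the first kind that applies in the order tandem stretch, at least 50% repeat-masked, promoter, other. Folds of 7.39, 5.07 and 3.98 at the top belong to tandem stretches in introns of Cmas, Abhd6 and Atp2c1, whereas most regions lie close to the median of 2.39.

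Away from promoters, the 10 strongest regions that were less than 50% repeat-masked included those of Cmas, Atp2c1 and Sirpa. The next in order were intergenic regions nearest to Cdh4 (chr2:179246836-179247124, fold 3.33) and 1700010B08Rik (chr2:173707599-173707892, fold 3.37) and an intron of Lman1 (chr18:65986018-65986583, fold 3.40), all with tandem sequence. A region 2.65 kb from a start site of Stim2, a calcium sensor of the endoplasmic reticulum, had a fold of 3.31 over 619 bp (chr5:53995234-53995852) and no tandem stretch. The same applied to an intron of the zinc finger gene Tshz1 (chr18:84080249-84080606, fold 3.05) and to an intergenic region 8.36 kb from P2rx4, an ATP-gated cation channel (chr5:122698814-122699188, fold 3.01). The region nearest to Prr23a1 (chr9:98732863-98733270, fold 3.08) was 43.6% tandem and overlapped H3K27Me3 peaks of all 3 diets.

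The strongest promoter regions were GC-rich and held at most 29.2% repeat-masked bases. At Srfbp1, which encodes a cofactor of serum response factor, a region of 346 bp covered a start site (chr18:52465684-52466029, fold 3.54, −log10 q 10.7), 410 kb from the nearest RD or HFD peak. The region at Tmem223, a mitochondrial membrane protein gene, had a fold of 3.41 (chr19:8771061-8771497). Genes of ubiquitin ligases followed, Cblc (fold 3.11) and Trim68 (fold 3.10), then the transporter gene Slc6a21 (3.10), 1700047I17Rik2 (3.07) and the synaptic adhesion gene Lrfn1 (3.06). The list closed with Prickle2, a planar polarity gene (3.05), Gltp, which encodes a glycolipid transfer protein (3.02), and Drc1, a gene of the ciliary axoneme (3.01). GC content ran from 58.6% to 74.2% in these 10 regions, none had a tandem stretch and none overlapped an H3K27Me3 peak of any diet.

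The 5 longest regions were weak. They lay in introns of Glis1 (chr4:107621485-107625910, 4426 bp, fold 2.37), Slc6a6, which encodes the taurine transporter (3168 bp, fold 2.51), and Inpp5a (3063 bp, fold 2.29), and between genes nearest to Cyp3a41b (4002 bp, fold 2.38) and Tcp10c (3336 bp, fold 2.30).

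HFD-O304-alone regions were found at promoters, meaning within 1000 bp of where a protein-coding transcript begins, in 492 of 3009 cases (16.4%, 15.1 to 17.7). Introns held 1420 (47.2%), exons 126 (4.19%) and intergenic sequence 971 (32.3%). Regions common to all 3 diets lay at promoters in 69.8% (69.0 to 70.6), far above the HFD-O304-alone set (odds ratio 0.0845, Fisher exact test over regions, adjusted p below 1e-300). The common regions were also longer (median 1346 bp against 433 bp) and stronger (median HFD-O304 fold 3.04 against 2.39). The part of length and strength in this difference was not tested. Compared with HFD-alone regions, of which 13.9% (12.9 to 15.0) lay at promoters, the odds ratio was 1.21 (Fisher exact test, adjusted p = 5.4e-03), and compared with RD-alone regions (9.68%, 8.06 to 11.6) it was 1.82 (adjusted p = 5.2e-08). Neither single-diet difference passed the test once peaks with at least 50% repeat-masked bases were removed, with an odds ratio of 1.02 against HFD alone (Fisher exact test, adjusted p = 1.0) and 1.17 against RD alone (adjusted p = 0.37). With one fold cutoff for all lists the odds ratio against HFD alone was 1.1 (Fisher exact test, adjusted p = 0.19). The promoter share moved with the strength asked of peaks. A −log10 q of at least 5 for the HFD-O304 peak only gave 28.0% (21.1 to 36.2) of 132 regions. Asked of all lists, it also dropped weaker RD and HFD peaks and gave 994 regions, most of them not among the 3009. Of these 994 regions 53.2% (50.1 to 56.3) lay at promoters, with an odds ratio of 1.14 against HFD alone (Fisher exact test, adjusted p = 0.10). All p-values here were two-sided, were adjusted by Benjamini-Hochberg over 9 tests, and compare regions of merged lists, not mice.

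Repeat-rich sequence was less frequent in the HFD-O304-alone set than in the other single-diet sets. At least 50% of bases were repeat-masked in 528 regions (17.5%, 16.2 to 18.9), compared with 27.9% (26.5 to 29.3) of HFD-alone regions (odds ratio 0.550, Fisher exact test, adjusted p = 4.3e-24) and 46.0% (43.0 to 49.0) of RD-alone regions (odds ratio 0.25, adjusted p = 1.1e-70). It was more frequent than in regions of all 3 diets, where it was 10.2% (odds ratio 1.87, exact test, adjusted p = 1.3e-26). Outside promoters the order was the opposite, with 517 of 2517 HFD-O304-alone regions (20.5%, 19 to 22.2) and 1311 of 3907 regions of all 3 diets (33.6%, 32.1 to 35.1) repeat-rich, a difference that was not tested. The difference from HFD alone did not pass the test when a −log10 q of at least 5 was asked of the HFD-O304 peak only. That gave 28.0% of 132 regions and an odds ratio of 1.01 (Fisher exact test, adjusted p = 1.0), with HFD-alone regions left unfiltered. Asked of all lists, the cutoff gave 0.624 against HFD alone (Fisher exact test, adjusted p = 4.8e-05). Against RD alone it gave 0.129 (Fisher exact test, adjusted p = 4.3e-54). Most regions kept by that cutoff were not in the HFD-O304-alone set described here. Repeat-rich regions of the HFD-O304-alone set were also remote. Their median distance to the nearest RD or HFD peak was 53184 bp, compared with 11825 bp for the others. Only 11 of the repeat-rich regions lay at promoters.

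**Figure D3:**
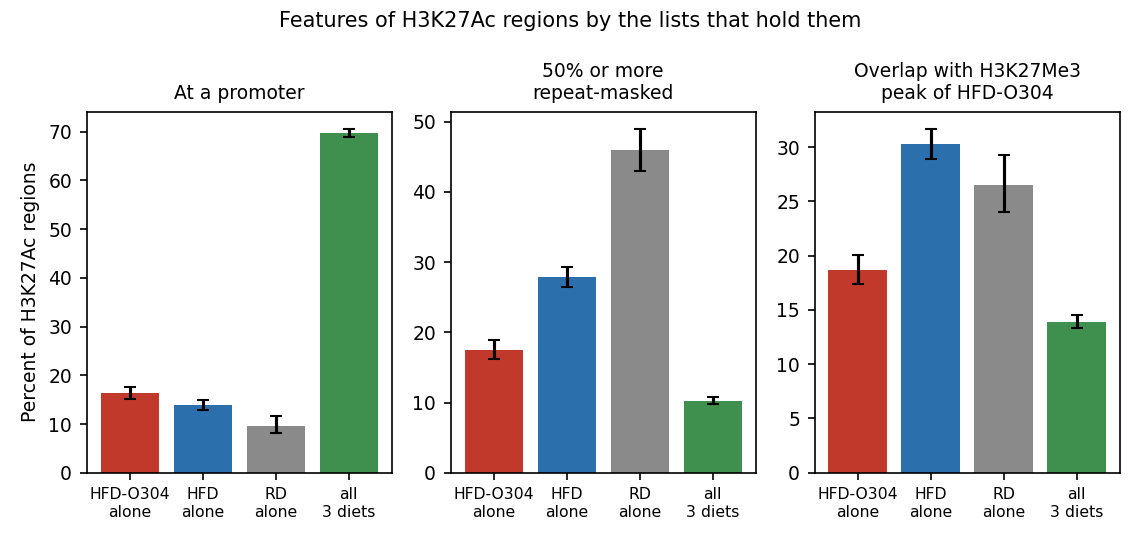
Percent of H3K27Ac regions (y axes, each from 0, with different scales) at a promoter, with at least 50% repeat-masked bases, and overlapping an H3K27Me3 peak of HFD-O304, for regions in HFD-O304 alone (n = 3009), HFD alone (n = 3938), RD alone (n = 1085) and all 3 diets (n = 12950). Bars are shares with 95% Wilson intervals over regions. HFD-O304-alone regions show the lowest repeat and H3K27Me3 shares of the single-diet sets, at 17.5% and 18.7%, and all single-diet sets lie far below 69.8% at promoters.

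H3K27Me3, measured with another antibody in other libraries, overlapped fewer of the HFD-O304-alone regions than of the other single-diet regions. In the HFD-O304 list of this mark, 563 regions (18.7%, 17.4 to 20.1) overlapped a peak, compared with 30.3% (28.9 to 31.7) of HFD-alone regions (odds ratio 0.530, Fisher exact test, adjusted p = 3.8e-28) and 26.5% (24.0 to 29.3) of RD-alone regions (odds ratio 0.637, adjusted p = 1.1e-07). When HFD-alone regions were scored against the H3K27Me3 list of HFD instead, 26.5% (25.1 to 27.9) overlapped. The odds ratio was then 0.639 (Fisher exact test, adjusted p = 3.5e-14). In the HFD-O304 list the share in regions of all 3 diets was 13.9% (odds ratio 1.43, exact test, adjusted p = 7.6e-11). Outside promoters the order was the opposite, at 17.4% (16.0 to 19) for HFD-O304 alone and 38.8% (37.3 to 40.4) for all 3 diets, which was not tested. Overlap needed 1 bp, and the regions of all 3 diets were longer (median 1346 bp against 433 bp). The part of length in both comparisons was not tested. Of the HFD-O304-alone regions 17.8% overlapped an H3K27Me3 peak of the RD list and 17.2% one of the HFD list. In all, 2348 regions (78%) had H3K27Me3 in no diet and 408 (13.6%) in all 3 diets. Only 98 (3.26%) overlapped H3K27Me3 in RD or HFD and not in HFD-O304, and 37 (1.23%) in HFD-O304 alone.

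The overlap of both marks was most frequent in repeats. Among the repeat-rich regions 330 of 528 (62.5%, 58.3 to 66.5) overlapped an H3K27Me3 peak of HFD-O304, compared with 233 of 2481 (9.39%, 8.31 to 10.6) of the others. In regions with less repeat the share was 14.7% (13.4 to 16.0) for HFD alone, 10.9% (8.65 to 13.7) for RD alone and 6.93% for all 3 diets. With repeat-rich peaks removed before joining, the odds ratio was 0.646 against HFD alone (Fisher exact test, adjusted p = 4.1e-07) and 0.757 against RD alone (adjusted p = 0.097). With a −log10 q of at least 5 asked of the HFD-O304 acetylation peak only, neither difference passed the test. The odds ratio was 0.677 against HFD alone (Fisher exact test, adjusted p = 0.086) and 0.814 against RD alone (adjusted p = 0.45). The HFD-alone and RD-alone regions were not filtered there. Asked of all acetylation lists, the cutoff gave 0.654 against HFD alone (Fisher exact test, adjusted p = 4.8e-05). Against RD alone it gave 0.663 (Fisher exact test, adjusted p = 5.3e-03). When only H3K27Me3 peaks with a −log10 q of at least 5 were counted, the share of HFD-O304-alone regions was 9.11% and the odds ratio against all 3 diets turned to 0.911 (Fisher exact test, adjusted p = 0.19). At promoters 124 of 492 regions (25.2%, 21.6 to 29.2) overlapped the mark. Merged islets do not show whether both marks were on the same chromatin.

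**Figure D4:**
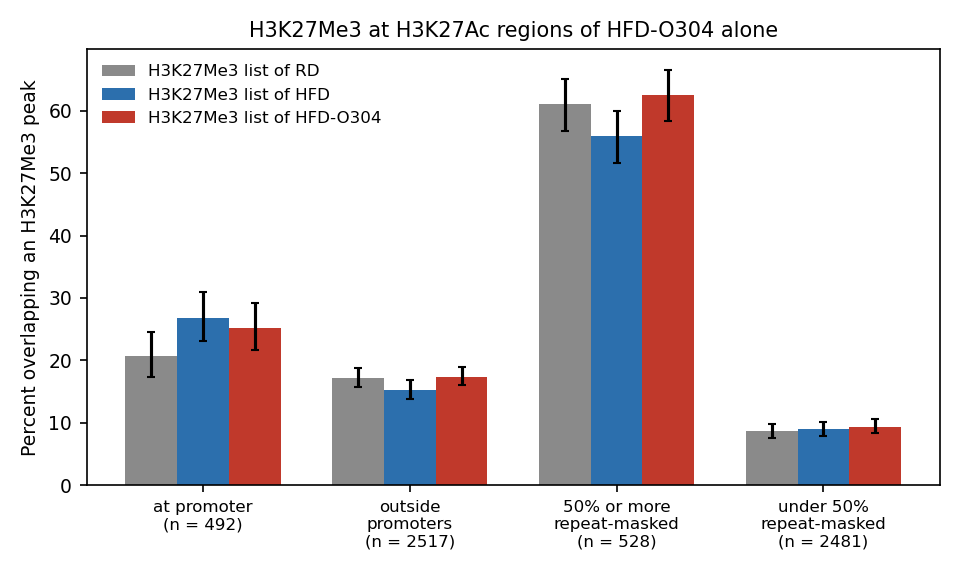
Percent of HFD-O304-alone regions that overlap an H3K27Me3 peak (y axis) of the RD, HFD or HFD-O304 list, for regions at promoters, outside promoters, with at least 50% and with under 50% repeat-masked bases, the number of regions being given under each set. Bars are shares with 95% Wilson intervals over regions; for the HFD-O304 list they stand at 25.2%, 17.4%, 62.5% and 9.39%.

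At the level of genes, 498 of 20722 protein-coding genes had an HFD-O304-alone region at a promoter (2.40%), and 129 of them had an RD or HFD peak at another promoter position as well. The other 369 genes had promoter acetylation in the HFD-O304 list and in neither other list. They compare with 455 genes acetylated at a promoter in HFD alone and 74 in RD alone, while 11282 genes had an HFD-O304 peak at a promoter in all. Of the strongest promoter genes named above, all but Prickle2 were among the 369. Others of the 369 were Egfl7 (fold 2.95), the kinase gene Tnk1 (2.92), Polr1e, a subunit gene of RNA polymerase I (2.92), and Scg2 (2.90), as well as Efna4, an ephrin ligand gene (2.84). An H3K27Me3 peak of the HFD-O304 list lay within 1000 bp of a start site for 120 of the 369 genes (32.5%, 27.9 to 37.5). Such a peak need not overlap the acetylated region itself. The share was 10.5% for all genes and 34.1% (29.9 to 38.5) for the 455 genes of HFD alone. In the RD and HFD lists the shares of the 369 genes were 26.8% and 35.0%. The mark was present in all 3 lists at 87 genes and in none at 227. At 22 genes (5.96%) it was present in RD or HFD and not in HFD-O304.

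A region lay within 50 kb of a start site of 3896 genes, 18.8% of all protein-coding genes and 24.8% of those with an HFD-O304 peak at a promoter. Regions of HFD alone did so for 21.8% and 23.4%. These shares are the background for the gene lists that follow. Genes close together count the same region more than once, and genes with many start sites cover more sequence. A region counted for a gene can lie in or at the promoter of another gene. No list was tested.

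For hormones and granule proteins the count was 11 of 23 genes (47.8%, 29.2 to 67), compared with 7 genes for HFD-alone regions. Scg2, which encodes the granule protein secretogranin 2, had one across a start site at chr1:79439786-79440115, where the fold was 2.90 and −log10 q 5.87, and Slc30a8, the gene of the granule zinc transporter, had one 0.374 kb from a start site (chr15:52294746-52295179, fold 2.40). Chga, the chromogranin A gene, had one at 32.6 kb (fold 2.68). Ins2 had one at 2.47 kb (chr7:142676658-142677059, fold 2.46). A single region at chr1:75283034-75283712 accounted for both Resp18 and Ptprn.

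For glucose sensing and ion channels the count was 13 of 21 genes (61.9%, 40.9 to 79.2), and 12 genes for HFD alone. Pcx, the gene of the anaplerotic enzyme pyruvate carboxylase, was the one with a region at a promoter (chr19:4592864-4593726, fold 2.44). An RD or HFD peak lay at another promoter position of Pcx. Cacnb2, a calcium channel subunit gene, had one in an intron at 4.54 kb (chr2:14608851-14609229, fold 2.80), shown above with a match to the NEUROD1-type E-box. The region counted for the cation channel gene Trpm4, at 27.7 kb, was that of the Slc6a21 promoter. For the glucose transporter gene Slc2a2 a region lay 30.6 kb away (fold 2.80), in an intron of Tnik.

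The exocytosis machinery had a region near 5 of 18 genes (27.8%), and HFD alone also stood at 5 of 18. Among them were Rab27a, a small GTPase of granule docking, at 7.6 kb (fold 2.63) and Unc13a, a priming factor, at 43.2 kb (2.62, a region in an intron of Fam129c). Receptors and cAMP signalling had 6 of 19 (31.6%), with HFD alone at 9 of 19 (47.4%). The catalytic kinase subunit gene Prkaca had one at 27.5 kb (2.59, a region in an exon of 1700067K01Rik). For the exchange factor gene Rapgef3 it lay at 43.4 kb (2.51, a region in an intron of Hdac7). The region of the incretin receptor gene Gipr, at 15.1 kb (2.48), was at the Eml2 promoter. Of the beta cell transcription factors 6 of 22 (27.3%, 13.2 to 48.2) were counted, with HFD alone at 9 of 22. Isl1 had its region at 49.5 kb (2.68), Mafa at 3.0 kb (chr15:75744868-75745223, 2.62) and Pax6 at 5.32 kb (2.44). None of these 22 genes had one at a promoter, while 21 of them had an HFD-O304 peak there that belonged to a region called in another diet as well. Alpha, delta and progenitor factors had 2 of 13 (0 for HFD alone), Neurog3 at 40.1 kb (2.33) and Sox4 at 20.6 kb (2.25).

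AMPK genes and targets were of interest because O304 acts on this kinase. Of AMPK subunits and upstream kinases 3 of 13 (23.1%, 8.18 to 50.3) had a region within 50 kb. HFD-alone regions gave 5 of 13 (38.5%). The upstream kinase gene Camkk2 had one at 44.9 kb (fold 3.01, the region nearest to P2rx4). Prkag2 had one at 34.7 kb (2.66) and Prkag1 at 49.4 kb (2.51, at the Wnt10b promoter), both encoding regulatory gamma subunits. Among AMPK targets and genes of fuel metabolism the count was 14 of 33 (42.4%, 27.2 to 59.2), whereas HFD-alone regions gave 5 of 33 (15.2%). The difference between both counts was not tested. Promoter regions were present at Sirt1, an NAD-dependent deacetylase gene (0.667 kb from a start site, fold 2.50), and at Srebf1, the gene of the lipogenic factor SREBP1 (chr11:60206392-60207334, fold 2.47). Both genes also had an RD or HFD peak at another promoter position. Esrrg, a nuclear receptor gene of oxidative metabolism, had a promoter region (chr1:187609447-187610094, fold 2.34) and no RD or HFD promoter peak. The Esrrg region overlapped H3K27Me3 of all 3 diets. Among the others were Cpt1a, for mitochondrial fatty acid entry, at 30.8 kb (2.50), and Mlycd, for the malonyl-CoA decarboxylase, at 18.1 kb (2.64). The Srebf1 promoter region lay 119 bp from an RD or HFD peak.

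**Figure D5:**
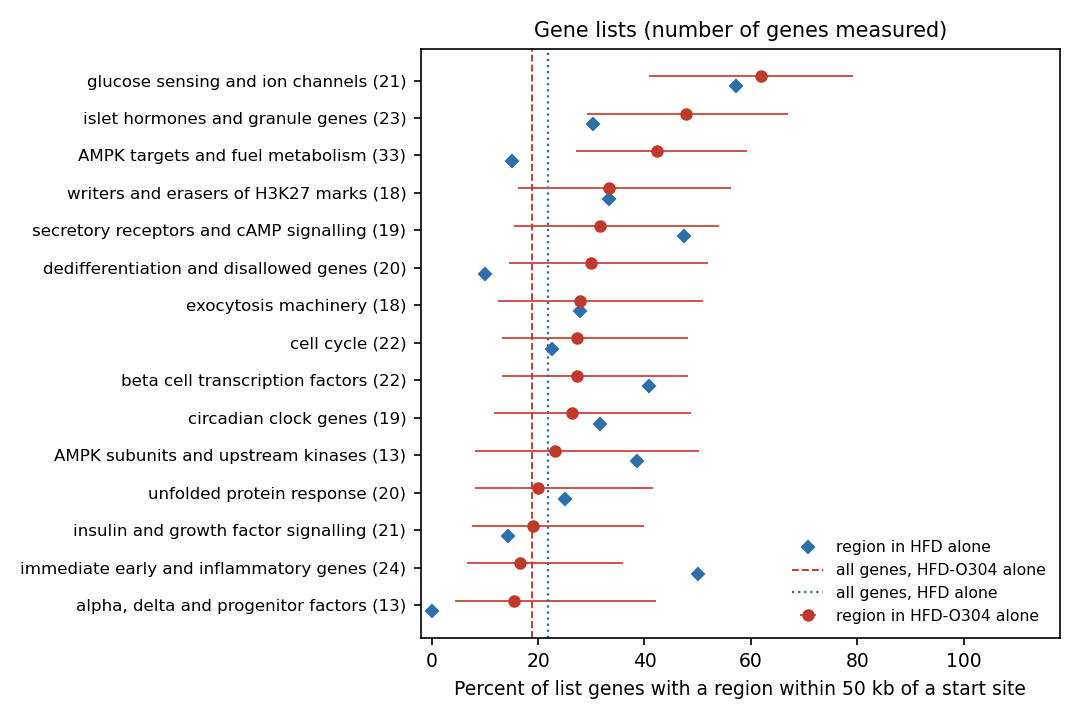
Percent of genes of each list (x axis) with a region within 50 kb of a start site, for 15 gene lists (y axis, number of genes measured in brackets). Red points are regions of HFD-O304 alone with 95% Wilson intervals over genes, blue diamonds are regions of HFD alone, and the vertical lines are all protein-coding genes, at 18.8% and 21.8%. The list of AMPK targets stands at 42.4% for HFD-O304 alone and 15.2% for HFD alone, and that of immediate early and inflammatory genes at 16.7% and 50.0%.

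Immediate early and inflammatory genes showed the opposite order. Here 4 of 24 genes (16.7%, 6.68 to 35.9) had an HFD-O304-alone region within 50 kb and 12 of 24 (50.0%) an HFD-alone region, a difference that was not tested. The genes were the interleukin 1 receptor gene Il1r1 at 11.3 kb (fold 2.52), the orphan receptor gene Nr4a3 at 1.51 kb (2.40), Stat3 at 28.5 kb (2.40) and the antiproliferative gene Btg2. The Nr4a3 region overlapped H3K27Me3 of all 3 diets.

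The remaining lists lay between 19% and 33.3%. In the unfolded protein response 4 of 20 genes were counted (5 for HFD alone), all 4 through regions in or at other genes. The protein disulphide isomerase gene Pdia3 had one at 28.3 kb (2.63, at the Ell3 promoter). Manf had one at 17.3 kb (2.59, in an intron of Dock3) and the chaperone gene Calr at 46.2 kb (2.58, at the Gcdh promoter). Insulin and growth factor signalling had 4 of 21 (3 for HFD alone). Of these 4, the receptor gene Notch1 had its region at a promoter (2.43). Akt2 and Smad7 had theirs at 45.3 and 17.6 kb (2.53 and 2.48). The one counted for Akt2 was at the Ttc9b promoter and overlapped H3K27Me3 of all 3 diets. The cell cycle list had 6 of 22 (5 for HFD alone). These 6 included Cdk6 at a promoter (2.37), Cdk4 at 32.8 kb (2.52, at the Tsfm promoter) and the inhibitor gene Cdkn1c at 22.0 kb (2.49). The Cdk6 and Cdkn1c regions overlapped H3K27Me3 of all 3 diets. Cdk6 also had an RD or HFD peak at another promoter position. Dedifferentiation and disallowed genes, which beta cells normally keep silent, had 6 of 20 (2 for HFD alone). The chemokine gene Cxcl12 (2.45, overlapping H3K27Me3 of all 3 diets) and Arap2 (2.42) had theirs at promoters. For Oat the region, at 34.1 kb (2.67), was at the Lhpp promoter. Circadian clock genes had 5 of 19 (6 for HFD alone). Rora at 32.6 kb (2.64), Cry2 at 3.57 kb (2.46) and Per2 at 6.51 kb (2.33) were among the 5. Writers and erasers of H3K27 marks had 6 of 18, and HFD alone also stood at 6 of 18. The deacetylase gene Hdac7 had its region at a promoter (2.48), with an RD or HFD peak at another promoter position. The H3K27 demethylase gene Kdm6b had one at 11.6 kb (2.66) and the Polycomb gene Eed at 48.6 kb (2.41).

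Some genes had several HFD-O304-alone regions within 50 kb of a start site. Among them were Gse1, for a component of chromatin complexes (6 regions, folds of 2.30 to 2.61), Nav2 (6, 2.28 to 2.52), the axonemal dynein gene Dnah8 (6, 2.27 to 2.42) and 0610040J01Rik (6, 2.29 to 2.58). All of these regions were weak. In total 3123 genes had 1 such region, 631 had 2 and 108 had 3.

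Motif content differed between regions at promoters and elsewhere. Within the central 250 bp and on both strands, the GC box of SP and KLF factors (GGGCGG) was found in 38.0% (33.8 to 42.4) of promoter regions and 10.1% (8.97 to 11.3) of those elsewhere, and in 31.5% of all joined regions. The NEUROD1-type E-box (CAGATG) was found in 12% of promoter regions and 19.3% of those elsewhere, and in 14.1% of all joined regions. Both examples above that match it, in Scg2 and Cacnb2, hold it once in the stretch shown. Outside promoters the E-box stood at 17.0% (15.7 to 18.3) in HFD alone and 17.8% in RD alone. The AP-1 motif (TGANTCA) stood at 6.87% (5.95 to 7.93) outside promoters, and at 6.4% for HFD alone. The FOXA and FOXO motif (TGTTTAC) was present in 3.02% of HFD-O304-alone and 2.67% of HFD-alone regions, and the CRE of CREB (TGACGTCA) in 0.299% and 0.203%. Over all regions of each set, 1 of the 20 motifs had intervals that did not overlap between HFD-O304 alone and HFD alone, the ETS motif (CCGGAA), with 7.18% (6.31 to 8.16) and 9.55% (8.67 to 10.5). Outside promoters and with less than 50% repeat the ETS values were 4.15% (3.36 to 5.12) and 4.53% (3.75 to 5.45), with overlapping intervals. The GC box, at 14.7% (13.4 to 16.0) and 17.0% (15.8 to 18.2) over all regions of HFD-O304 alone and HFD alone, was apart outside promoters, at 10.1% and 13.7% (12.6 to 14.9), and overlapped again with less than 50% repeat, at 8.40% (7.26 to 9.70) and 9.62% (8.48 to 10.9).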

How the data were processed

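ChIP-seq of H3K27Ac and H3K27Me3 was done on islets of mice on RD, HFD and HFD-O304. Per the file headers, peaks were called by the authors with MACS 2.1.2 in broad mode on paired fragments, without a control and without local background, at a q of 0.01, with 1 fragment kept per position and replicates merged. Bowtie2, STAR, FastQC and GRCm38 appear in the submitters' processing notes. Each deposited list gives the pileup (a fragment coverage signal), the fold enrichment (a ratio to the genome-wide background) and −log10 q. A fold between lists was never computed. The 15 samples include 3 inputs, which were not used here.

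Peaks of the 3 H3K27Ac lists were joined in Python 3.11.15, and start sites, exons and introns of protein-coding transcripts were taken from GENCODE M21. Repeat masking and sequence came from the RefSeq GRCm38 assembly. Shares carry 95% Wilson intervals. Fisher exact tests (SciPy 1.17.1, threshold 0.05) ran over regions, and code was tested on simulated lists. Of the gene lists, genes on chromosomes X and Y were not measured. The alternatives were other thresholds, list sizes, joining rules, windows and repeat handling.

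The regions and the gene lists were chosen with earlier results of these data known. Regions were named by −log10 q (10 at promoters, 10 elsewhere with under 50% repeat, 5 of any kind), by length, by closeness to the rule's limit, as up to 3 genes per list, and as the 5 genes with most regions. A few further genes (Krt19, Ins2, Ptprn, Slc2a2, Egfl7, Tnk1, Polr1e, Efna4, Cpt1a, Mlycd and Btg2) were named, and the tandem measure, the Zfp count and the Scg2 and Cacnb2 sequences were added, after their values were seen. Some genes that these rules pick are not reported here.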

Additional observations from a re-analysis of the deposited data

How the results depend on the processing

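Of 92 recomputed odds ratios, 83 kept their direction and their side of the threshold, 7 lost significance and 2 changed direction. Another 10 that cannot change by construction were not counted. A −log10 q of at least 5 in all H3K27Ac lists gave 994 regions (promoter share 53.2%, repeat share 12.9%, H3K27Me3 overlap 17.1%). Most of these were not among the 3009, because weaker RD and HFD peaks were dropped as well. The promoter odds ratio against HFD alone was 1.14 (Fisher exact test, adjusted p = 0.10). Against HFD alone it was 0.624 for repeats and 0.654 for H3K27Me3 (Fisher exact test, adjusted p = 4.8e-05 for each). Against RD alone these were 0.129 (Fisher exact test, adjusted p = 4.3e-54) and 0.663 (adjusted p = 5.3e-03). Asked of the HFD-O304 peak only, this cutoff left 132 regions (28.0%, 28.0% and 22.7%) and did not filter HFD-alone or RD-alone regions. Against HFD alone the odds ratios were 1.01 for repeats (Fisher exact test, adjusted p = 1.0) and 0.677 for H3K27Me3 (adjusted p = 0.086). For H3K27Me3 against RD alone the odds ratio was 0.814 (Fisher exact test, adjusted p = 0.45). Equal list size gave 1892 regions (23.3%, 19.2% and 22.9%). One fold cutoff of 2.28 gave a promoter odds ratio of 1.1 against HFD alone. Removal of repeat-rich peaks gave a promoter share of 19.1%, an H3K27Me3 overlap of 10.2%, and odds ratios of 1.02 (promoter, HFD alone), 1.17 (promoter, RD alone) and 0.757 (H3K27Me3, RD alone). Removal of tandem peaks, added after seeing the data, gave a promoter share of 17.7% and a repeat share of 15.8%. Promoter windows of 500 and 2000 bp gave 15.0% and 18.6%, a repeat limit of 80% gave 14.1%, and H3K27Me3 peaks with −log10 q of at least 5 gave 9.11% overlap and an odds ratio of 0.911 against all 3 diets. The cause of these shifts was not tested. Windows of 20 and 100 kb moved 3 of 42 list shares across the background, all at 20 kb. The shares of AMPK subunits and upstream kinases and of the unfolded protein response fell below it. That of immediate early and inflammatory genes rose above it.

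No paired analysis was possible because each diet has 1 list per mark, made from both of its libraries together, and none of the libraries can be left out of it. A signal absent in one diet and a signal just under the calling limit there cannot be told apart in these lists.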

Other observations

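Beyond protein-coding genes, 92 of the 2517 HFD-O304-alone regions outside protein-coding promoters (3.66%) lay within 1000 bp of a start site of a long non-coding RNA. The strongest were at Gm6712 (chr17:17294471-17294768, fold 2.91), Gm12031 (fold 2.86) and 4930519A11Rik (fold 2.78). Kdm6bos, the antisense transcript at Kdm6b, had a region with a fold of 2.66 (chr11:69401495-69402123), which is the region counted for Kdm6b.

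Zinc finger genes with names of the Zfp series made up 19 of the 369 genes acetylated at a promoter in HFD-O304 alone (5.15%, 3.32 to 7.90), among them Zfp934 and Zfp935, which share 1 region, Zfp174 and Zfp930. The share was 3.30% (2.01 to 5.37) of the 455 genes of HFD alone, 2.60% of all genes with an HFD-O304 promoter peak and 1.86% of all genes. This group was picked after seeing the strongest genes and was not tested. The same joining found 55 regions on chromosome X and 7 on chromosome Y, and the strongest was intergenic on chromosome Y (chrY:82077896-82078187, fold 5.82).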
